A study of Mus musculus with 12 samples.

Results

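Neurons of the mouse pontine nucleus whose sample labels name Hoxa5 in different ways were set against each other: 3 libraries labelled Hoxa5tdTomato and 3 labelled Math1Hoxa5-IRES-GFP, which are 6 of the 12 libraries of the series. The members are set by their column names, which hold no measured value. All libraries came from CD-1 embryos at stage E18.5 and from sorted neurons that carried a genetic label. The names of the first group give Hoxa5, Cre and a tdTomato reporter. The names of the second, called the IRES-GFP libraries here, give Math1 (the gene Atoh1), Cag, lsl, Hoxa5 and an IRES-GFP reporter. The other 6 libraries, labelled Math1tdTomato, are the references, of which 3 columns name Math1 and creErt2 and 3 name Math1 and tdT. The sources used here do not give the animals behind a library, the litter, the time of recombination or which cells each driver reaches. No label says which references belong with which group. Nothing says whether replicates were separate animals, so p-values measure the spread between these libraries.

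Hox genes encode homeodomain transcription factors that are switched on in nested territories along the head-to-tail axis of the hindbrain and spinal cord, and genes of higher paralog number usually start further back. They bind DNA together with TALE cofactors of the Pbx and Meis families. Pontine neurons arise from the Atoh1-expressing rhombic lip of the hindbrain, migrate forward and to the ventral midline under guidance by Netrin and Slit cues, and later carry cortical input to the cerebellum as mossy fibres.

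The 250 bases before the start of 4 Hox genes are shown because Hox genes of neighbouring paralog number differed between the groups. The sequences and positions are from RefSeq on GRCm38.p6 and are printed 5′ to 3′ on the strand of the gene. Among the Hox genes looked up, only these 4 had a sequence. Hoxa2, Hoxa3 and Hoxd4, described below, were not looked up. Capitals mark a run of 12 bases that the Hoxa5 and Hoxc4 windows share.
Hoxa5, chr6:52204588-52204837, minus strand: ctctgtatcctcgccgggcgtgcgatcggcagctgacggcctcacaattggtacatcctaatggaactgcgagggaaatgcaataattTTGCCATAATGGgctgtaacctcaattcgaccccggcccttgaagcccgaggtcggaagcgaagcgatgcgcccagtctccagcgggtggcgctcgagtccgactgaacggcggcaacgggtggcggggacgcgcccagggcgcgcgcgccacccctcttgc
Hoxa7, chr6:52218574-52218823, minus strand: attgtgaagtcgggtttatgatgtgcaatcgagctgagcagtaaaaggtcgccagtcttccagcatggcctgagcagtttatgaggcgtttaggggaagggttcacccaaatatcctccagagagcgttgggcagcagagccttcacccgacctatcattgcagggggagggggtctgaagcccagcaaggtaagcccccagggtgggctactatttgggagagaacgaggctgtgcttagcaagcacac
Hoxc4, chr15:103034145-103034394, plus strand, inside the annotated gene body: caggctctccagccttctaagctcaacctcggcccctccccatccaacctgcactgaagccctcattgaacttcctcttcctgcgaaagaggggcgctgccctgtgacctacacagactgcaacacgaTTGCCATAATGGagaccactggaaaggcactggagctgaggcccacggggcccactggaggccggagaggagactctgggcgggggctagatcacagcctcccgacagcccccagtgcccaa
Hoxb4, chr11:96318017-96318266, plus strand: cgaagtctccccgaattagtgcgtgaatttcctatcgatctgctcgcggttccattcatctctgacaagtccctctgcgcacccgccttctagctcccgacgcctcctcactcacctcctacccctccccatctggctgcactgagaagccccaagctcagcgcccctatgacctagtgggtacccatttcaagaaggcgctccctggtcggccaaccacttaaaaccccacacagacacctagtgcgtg
The shared run begins at position 89 of the Hoxa5 window and at position 129 of the Hoxc4 window, counted from 1 at the 5′ end. It was picked because these 2 windows share it, so its matches there were fixed by that choice. No other of the 32851 windows of this length held it on either strand. The Hoxc4 and Hoxb4 windows share another run of 12 bases. The homeodomain core TAATTA, present in 4.84% of all windows, and the Hox and Pbx motif TGATNNAT, present in 7.68%, had no match on either strand in any of the 4. A match or its absence describes these letters only.

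Depth differed between the groups. The Hoxa5tdTomato libraries held 9973484 to 13302076 counts and the creErt2 references 10744885 to 10980424. The IRES-GFP libraries held 22355961 to 24124238 and the tdT references 22373485 to 29820776. The number of genes with a count ran from 15867 to 16290 in Hoxa5tdTomato and from 13074 to 15240 in IRES-GFP, where replicate 3 had the fewest. The log2 CPM (counts scaled by TMM to a common library size) of replicates correlated across genes at 0.958 to 0.967 in Hoxa5tdTomato and at 0.890 to 0.946 in IRES-GFP. Barhl1 and Pax6, of the pontine lineage, and Slc17a6, the vesicular transporter of glutamatergic neurons, were present in all 12 libraries. Slc17a6 lay between 299.9 and 307 CPM in Hoxa5tdTomato and between 336 and 506 in IRES-GFP. Xist was at 4.36 CPM in Hoxa5tdTomato replicate 1 and 10.9 in IRES-GFP replicate 3, against 2963 to 5440.4 in the other 4 libraries of these groups, so sex make-up varied within both groups and was not a term of the model.

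Hoxa5 itself was highest in the Hoxa5tdTomato libraries, at 127, 222 and 119 CPM. It was at 9.73, 16.8 and 82.0 CPM in the IRES-GFP libraries, at 8.79, 8.62 and 23.1 in the creErt2 references and at 8.06, 4.35 and 32.2 in the tdT references. The 2 groups did not overlap, but IRES-GFP replicates 1 and 2 lay among the references and only replicate 3 lay above them. The direct log2 difference, positive where Hoxa5tdTomato is higher, was 2.11 ± 0.75 (SE) with an adjusted p of 0.0946 in edgeR. The exact permutation test of the 3 against 3 libraries gave p = 0.1, two-sided, the smallest that its 20 splits allow. Against all 6 references the IRES-GFP libraries gave an exact permutation p of 0.167 over 84 splits, with 0.0119 the smallest possible. The call changed with the processing. Without IRES-GFP replicate 3 the direct difference was 3.55 with an adjusted p of 0.00349. It also passed in limma voom (2.73, adjusted p = 0.0107) and without the filter on low counts (2.13, adjusted p = 0.0348). How much of a transcript from the inserted allele this count can hold depends on which parts that transcript has, which the sources used here do not give. The gene body of Hoxa5 also overlaps that of Hoxa3, and whether reads were counted by strand is not given. Directions below are therefore stated between libraries by their labels.

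Atoh1, the gene behind the name Math1, was low in most libraries. It was at 5.78, 1.21 and 0.366 CPM in Hoxa5tdTomato and at 0.140, 4.99 and 19.2 CPM in IRES-GFP. The groups overlapped, and the log2 difference of -1.72 ± 1.28 (SE) had an adjusted p of 0.449 in edgeR.

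Some other Hox genes of paralog groups 4 to 7 were higher in Hoxa5tdTomato. Of 31 Hox genes in groups 4 to 13, 8 had enough counts to be tested, and 4 of these were higher in Hoxa5tdTomato and none lower. Over all 14732 tested genes, 2.41% were called higher (355) and 5.67% lower (836). The median log2 difference of the 8 was 2.13, against 0.02 over all tested genes. Hoxa7, 1 of the 4, and Hoxd4 would not have passed the count filter on the 9 libraries other than Hoxa5tdTomato, so Hoxa7 could be called in 1 direction only. The other 6 gave 3 calls, with the same median of 2.13. Between the creErt2 and tdT references the median of all 8 was -0.49, against 0.00 over all tested genes, of the opposite sign to the direct median of the 8. Calls of Hoxa4, Hoxb5 and Hoxc4 held in each of 23 other fits, which changed the scaling, filter, tool or grouping or left out 1 library.

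Hoxa4 (chr6:52189682-52191703) was at 109, 128 and 104 CPM in Hoxa5tdTomato and at 9.22, 23.1 and 4.41 CPM in IRES-GFP. The references lay between 4.44 and 22.5 CPM, so IRES-GFP lay close to their range while all 3 Hoxa5tdTomato libraries were far above it. The log2 difference was 3.21 ± 0.58 (SE), with an adjusted p of 0.0042.
Hoxb5 (chr11:96303512-96306121), on another cluster but of the same paralog group as Hoxa5, was at 74.9, 71.5 and 60.9 CPM in Hoxa5tdTomato and at 12.9, 14.3 and 19.3 CPM in IRES-GFP. The groups again lay far apart, with the references between 13.5 and 39.7 CPM. The log2 difference was 2.16 ± 0.37 (SE), with an adjusted p of 0.00315.
Hoxc4 (chr15:103018097-103036856) was at 255, 207 and 209.8 CPM in Hoxa5tdTomato and at 57.7, 81.7 and 36.3 CPM in IRES-GFP. Its references lay between 19.8 and 61.9 CPM, and the log2 difference was 1.93 ± 0.35 (SE) with an adjusted p of 0.00436.

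**Figure D1:**
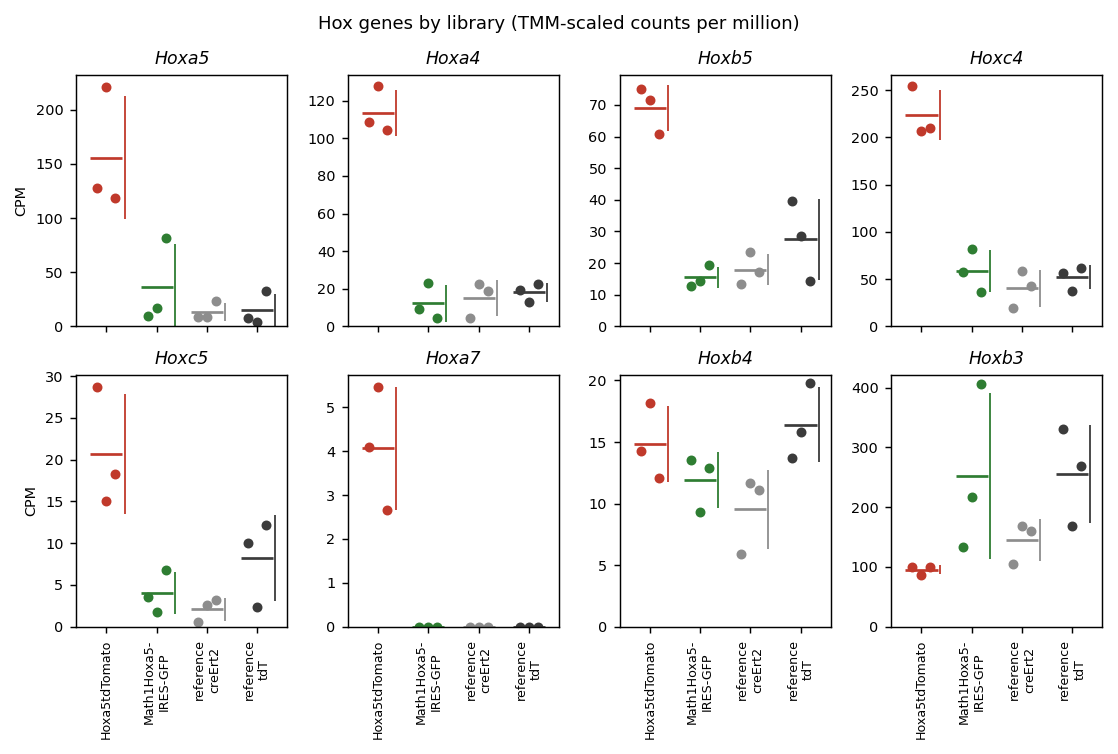
Hox genes by library. Each panel plots TMM-scaled CPM (linear axis from 0) for the 3 libraries of each of 4 groups as points, with the group mean as a horizontal line and 1 SD as a vertical line. Hoxa4, Hoxb5 and Hoxc4 are high in all 3 Hoxa5tdTomato libraries, Hoxa7 has counts in these libraries alone, and Hoxb4 overlaps between the groups.

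Hoxa7 had 46, 81 and 29 counts in the Hoxa5tdTomato libraries (4.09, 5.45 and 2.65 CPM) and 0 in all 9 others. Against a floor of 3 counts over the IRES-GFP group it was at least 89.4-fold higher in Hoxa5tdTomato, with an adjusted p of 0.0244 in edgeR. That call was lost without any 1 of the Hoxa5tdTomato libraries, with adjusted p of 0.089, 0.103 and 0.0648 without replicates 1, 2 and 3. It was also lost with the 6 libraries compared alone (0.0594). The values show Hoxa7 as low but limited to these libraries at this depth. Hoxc5, which neighbours Hoxc4, was at 28.7, 15 and 18.3 CPM in Hoxa5tdTomato and at 3.54, 1.8 and 6.72 CPM in IRES-GFP. Its log2 difference of 2.36 ± 0.75 (SE) missed the threshold (adjusted p = 0.0629) and passed it without IRES-GFP replicate 3 (0.0225) or tdT reference replicate 2 (0.0497). It also passed in DESeq2 (adjusted p = 0.0109), in limma voom (0.0492) and with scaling by library size (0.0494).

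Not all members of paralog groups 4 and 5 stood apart. Hoxb4 was at 14.2, 18.2 and 12.1 CPM in Hoxa5tdTomato and at 13.5, 9.35 and 12.9 CPM in IRES-GFP, so the groups overlapped. The log2 difference was 0.32 ± 0.41 (SE), with an adjusted p of 0.699. Hoxb4 lies within the gene body of Hoxb3, which adds doubt to the assignment of its reads. Hoxd4 reached at most 1.66 CPM, in IRES-GFP replicate 2.

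Among the 6 tested Hox genes of paralog groups 1 to 3, which pattern the rhombomeres, none was higher in Hoxa5tdTomato and 1 was lower, with a median log2 difference of -0.18, which became 0.13 with scaling by library size. Hoxb3 was at 99.9, 86.1 and 99.9 CPM in Hoxa5tdTomato and at 134, 217 and 405 CPM in IRES-GFP. The IRES-GFP values spread widely while those of Hoxa5tdTomato were close together. The log2 difference was -1.40 ± 0.33 (SE) with an adjusted p of 0.017, which rose to 0.0644, 0.0843 and 0.0588 without Hoxa5tdTomato replicates 1, 2 and 3. Hoxa2, which patterns the hindbrain and acts in pontine neuron migration, was at 138, 143 and 187 CPM against 173, 181 and 301 CPM, with overlap between the groups. Its log2 difference was -0.49 ± 0.22 (SE), with an adjusted p of 0.195. Hoxa3 overlaps Hoxa4 and Hoxa5 on the map and was at 142, 156 and 155 CPM against 94.8, 179 and 203 CPM.

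Among the TALE cofactors, Pbx3 had a log2 difference of -1.26 with an adjusted p of 0.0235. The call did not hold in all fits without 1 library (largest adjusted p 0.113, without Hoxa5tdTomato replicate 2). Among genes of retinoic acid, the signal that sets Hox borders, the share called was near that over all tested genes (8.08%). Of 12 tested, 1 was called. It was Cyp26b1, an enzyme that breaks down retinoic acid, at 28.0, 21.3 and 13.4 CPM in Hoxa5tdTomato and 7.31, 8.77 and 4.41 CPM in IRES-GFP (log2 difference 1.61, adjusted p = 0.0448). The references lay between 10.4 and 31.6 CPM, so Hoxa5tdTomato lay within their range and all 3 IRES-GFP libraries lay below it. Leaving out 1 library ended the call of Cyp26b1 in 9 of 12 fits, with the largest adjusted p, 0.176, without Hoxa5tdTomato replicate 1.

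Across all genes, 1191 of 14732 (8.08%) differed between the groups in edgeR, 355 higher and 836 lower in Hoxa5tdTomato. Scaling by library size alone, which moved the median difference of all genes from 0.02 to 0.30, turned this split to 527 higher and 194 lower. The counts also rested on single libraries. Without Hoxa5tdTomato replicates 1, 2 and 3 they were 113 higher and 266 lower, 109 and 238, and 170 and 415. Without IRES-GFP replicate 1 they were 636 higher and 1240 lower. Of the 1191 calls, 100 (24 higher, 76 lower) held with the same sign in all 23 other fits.

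The references were used to see how far the same genes differed where neither group was involved. Between the creErt2 and tdT references, which share no library with the direct comparison, 197 genes (1.34%) differed, 105 higher (0.713%) and 92 lower (0.624%) in creErt2. That count rested on single libraries too and ran from 38 without tdT reference replicate 1 to 784 without IRES-GFP replicate 3, which entered through the shared estimate of the spread. Of the 1191 direct calls, 1076 (90.3%) had the same sign between the references, against 9440 of all 14732 genes (64.1%). Of the 197 reference calls, 146 (74.1%) were also called directly with the same sign, which is 12.3% of the direct calls, and none with the opposite sign. Across the 10858 genes with a mean of at least 5 CPM the 2 sets of log2 differences had a Pearson r of 0.43, given as a description because genes are not independent. The points share depth, which splits both comparisons the same way. Set and group therefore cannot be told apart in the direct difference. Genes called higher had a median direct difference of 1.77 and a median reference difference of 0.88, and genes called lower had -0.84 and -0.41. For 300 of the 1191 (25.2%) the reference difference was under 0.25 of the direct one or of the opposite sign.

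**Figure D2:**
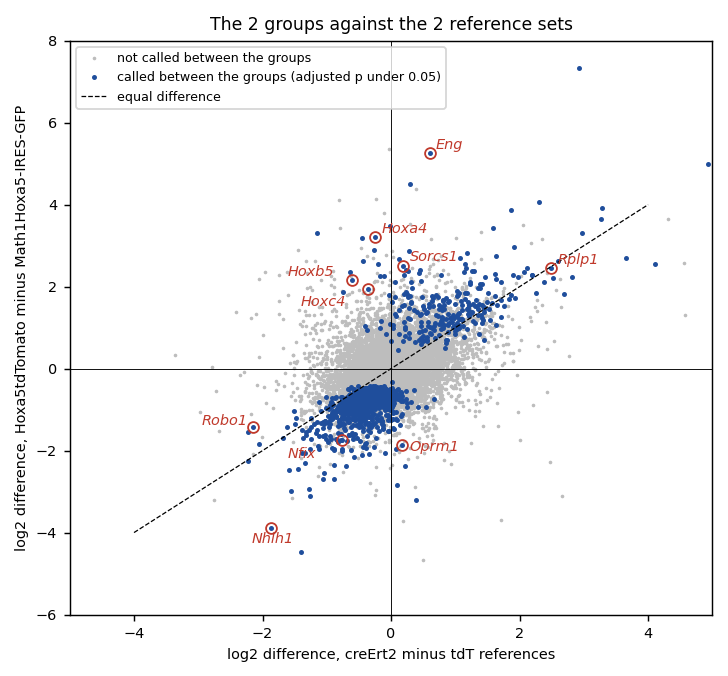
The direct difference against the difference between the reference sets. Each point is 1 gene with a mean of at least 5 CPM (10858 genes, 1 outside the axes), both axes are log2 differences, blue points were called directly and the dashed line marks equal differences. Most blue points lie at the lower left and upper right, Rplp1 lies close to the dashed line, and Hoxa4, Hoxb5, Hoxc4, Sorcs1 and Oprm1 lie near 0 on the reference axis.

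Which libraries stood apart varied from gene to gene. Among the 355 genes called higher, the 3 Hoxa5tdTomato libraries lay above all 9 others in 122, which 3.39% of all tested genes did. The 3 IRES-GFP libraries lay below all 9 others in 92 of the 355, against 1.90% of all tested genes. In 186 the Hoxa5tdTomato and creErt2 libraries together lay above the other 6, against 2.82%, and the 3 classes overlap. Among the 836 called lower, Hoxa5tdTomato lay below all others in 358 (background 3.77%), IRES-GFP lay above all others in 147 (1.95%), and the Hoxa5tdTomato and creErt2 libraries together lay below the other 6 in 357 (3.19%). Since the call itself used these libraries, the shares describe the calls and support nothing further.

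Taking the difference between the references out of the direct difference left few genes past a threshold. This reference-adjusted difference assumes that creErt2 references belong with Hoxa5tdTomato and tdT references with IRES-GFP, as depth and names but no label pair them. In edgeR 0 of 14732 genes (0%) passed an adjusted p of 0.05, the smallest was 0.178, and 1181 genes (8.02%) had an unadjusted p under 0.05, 520 higher (3.53%) and 661 lower (4.49%). DESeq2 called 54 (0.367%), 35 higher (0.238%) and 19 lower (0.129%), and limma voom called 0. Pairing the references the other way, which adds the reference difference to the direct one, gave 1722 calls in edgeR. Of the genes called directly by edgeR, 17 with at least 5 CPM in both groups were also among those DESeq2 calls with the same sign, 7 higher and 10 lower. They were singled out after their values were seen, and both criteria use the same 6 libraries. Beside Hoxa4, Hoxb5 and Hoxc4, the higher ones were Sorcs1, Lrrn3, Ptpru and Ncam2. The lower ones were Oprm1, Sash1, Gas7, Mmp16, Nrep, Ier5, Tab3, Pid1, Tiparp and Lin7c.

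Sorcs1, a sorting receptor that traffics neurexin and glutamate receptors, was the clearest of the genes low in IRES-GFP. It was at 76.8, 58.9 and 56.4 CPM in Hoxa5tdTomato and at 12.7, 10.7 and 10.7 CPM in IRES-GFP, with the references between 35.1 and 75.7 CPM. Hoxa5tdTomato lay in or just above the range of the references, and all 3 IRES-GFP libraries lay below every other library. The direct log2 difference was 2.50 ± 0.31 (SE, adjusted p = 0.000612), and the reference-adjusted one was 2.30 ± 0.42 (SE), with an adjusted p of 0.000364 in DESeq2 and 0.178 in edgeR.
Ptpru, a receptor tyrosine phosphatase of cell adhesion, was at 34.3, 36.8 and 49.4 CPM in Hoxa5tdTomato and at 7.03, 14.8 and 11.0 CPM in IRES-GFP, with the references between 51.1 and 74.9 CPM. Both groups thus lay below all references, IRES-GFP further than Hoxa5tdTomato. The direct log2 difference was 1.87 ± 0.29 (SE, adjusted p = 0.00169).
Lrrn3, a leucine-rich repeat membrane protein of neurons, was higher in Hoxa5tdTomato than in IRES-GFP, at 242, 229 and 207 CPM in Hoxa5tdTomato and at 123, 123 and 85.3 CPM in IRES-GFP. The references ran from 122 to 209 CPM and overlapped both groups. The direct log2 difference was 1.03 ± 0.18 (SE, adjusted p = 0.00318).

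Oprm1, the mu opioid receptor, moved the other way. It was at 13.2, 14.3 and 10.9 CPM in Hoxa5tdTomato and at 39.4, 56.7 and 42.9 CPM in IRES-GFP, with all references between 16.2 and 23.1 CPM. Hoxa5tdTomato lay below and IRES-GFP above every reference library. The direct log2 difference was -1.86 ± 0.31 (SE, adjusted p = 0.00248), and the reference-adjusted one was -2.02 ± 0.42 (SE), with an adjusted p of 0.00149 in DESeq2 and 0.317 in edgeR.
Sash1, a scaffold protein with SAM and SH3 domains, was at 44.2, 50.8 and 67.2 CPM against 125, 119.8 and 199 CPM, with a direct log2 difference of -1.45 ± 0.23 (SE, adjusted p = 0.00178). Gas7, which acts in neurite outgrowth, was at 94.1, 104 and 115 CPM in Hoxa5tdTomato and at 239.7, 209 and 314 CPM in IRES-GFP. In Gas7 the references (226 to 336 CPM) lay with IRES-GFP, and in Sash1 (66.7 to 79.3 CPM) they lay between the groups and touched the upper end of Hoxa5tdTomato.

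Nrep, a neuronal protein linked to regeneration, was at 1922, 1646 and 1593 CPM in Hoxa5tdTomato and at 2733, 2504 and 3340.5 CPM in IRES-GFP, a log2 difference of -0.73 ± 0.12 (SE, adjusted p = 0.00192). All 6 references, from 2082 to 2572 CPM, lay above Hoxa5tdTomato. Mmp16, a membrane-bound matrix metalloproteinase, was at 141, 161 and 188 CPM against 243, 308 and 306 CPM. IRES-GFP alone stood above the references in Mmp16, where the difference was -0.81 ± 0.16 (SE, adjusted p = 0.00794) and rose to an adjusted p of 0.0559 without Hoxa5tdTomato replicate 1. Ier5, an immediate early gene, was at 125, 122 and 126 CPM against 179, 295 and 353 CPM, with a difference of -1.15 ± 0.20 (SE, adjusted p = 0.0036). Of the remaining 4 lower genes, the direct calls of Tab3, Pid1, Tiparp and Lin7c were lost in 2, 10, 6 and 10 of the 12 fits without 1 library. Their largest adjusted p were 0.0551 (Tab3) and 0.159 (Pid1), both without Hoxa5tdTomato replicate 3, and 0.151 (Tiparp) and 0.147 (Lin7c), both without replicate 1.

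**Figure D3:**
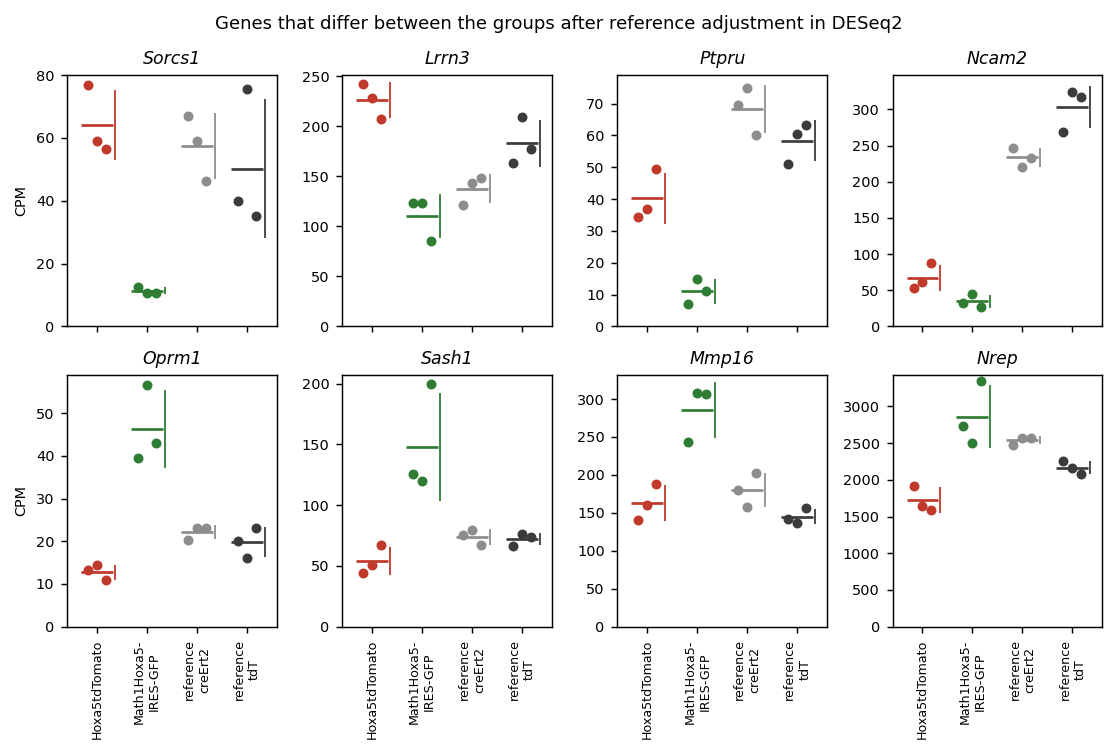
Plotted are 8 of the 17 genes, 4 higher (upper panels) and 4 lower (lower panels) in Hoxa5tdTomato. Points are TMM-scaled CPM of single libraries on linear axes from 0, with the mean as a horizontal line and 1 SD as a vertical line. Sorcs1 and Ptpru are lowest in IRES-GFP, Oprm1 is lowest in Hoxa5tdTomato and highest in IRES-GFP, and in Ncam2 both groups lie far below the references.

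Both groups also differed from the references in the same direction for some genes. The comparison of Hoxa5tdTomato with creErt2 references called 82 genes (0.557%), 43 higher (0.292%) and 39 lower (0.265%), and that of IRES-GFP with tdT references called 127 (0.862%), 79 higher (0.536%) and 48 lower (0.326%). The 2 comparisons have no library in common but share 1 estimate of the spread, so they are not independent. Called in both were 26 genes, 31.7% of the first and 20.5% of the second, all with the same sign, 16 higher and 10 lower than the references. Over all tested genes 0.176% were called in both, and 54.7% had the same sign in both comparisons. These counts rest on single libraries. The first was 19 to 25 without any 1 Hoxa5tdTomato or creErt2 library, 54 without tdT replicate 1 and 364 without IRES-GFP replicate 3. The second was 77 to 80 without any 1 Hoxa5tdTomato library, 79 and 84 without creErt2 replicates 2 and 3, 61 and 52 without tdT replicates 1 and 3, and 276 and 365 without IRES-GFP replicates 1 and 3. The genes called in both were 11 to 13 without any 1 Hoxa5tdTomato or creErt2 library, 17 without tdT replicate 3 and 113 without IRES-GFP replicate 3. The difference from the references was larger in IRES-GFP for 19 of the 26. Of those higher in both, 6 were called lower in Hoxa5tdTomato than in IRES-GFP directly (Lmo3, Spock1, Nrp2, Negr1, Prkcb and Rnf152), and 3 of those lower in both were called higher (Ncam2, Kctd12 and Fat4). Meg3, a noncoding RNA, was higher in both and called higher in Hoxa5tdTomato. The direct calls of Nrp2, Prkcb, Rnf152, Meg3, Kctd12 and Fat4 were lost in 3, 5, 7, 2, 3 and 10 of the 12 fits without 1 library, up to an adjusted p of 0.181 for Fat4 without Hoxa5tdTomato replicate 3.

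Lmo3, a transcription cofactor, was at 210.3, 284 and 252 CPM in Hoxa5tdTomato and at 525, 594 and 432 CPM in IRES-GFP, against 55.9 to 69.5 in creErt2 references and 86.5 to 126 in tdT references. The 4 groups formed 4 separate ranges. The log2 differences from the references were 1.94 (adjusted p = 0.000311) and 2.33 (adjusted p = 8.94e-06), and the direct one was -1.06 ± 0.18 (SE, adjusted p = 0.00328). Spock1, a proteoglycan of the extracellular matrix, followed the same order at 474, 428 and 412 CPM against 932, 982 and 746 CPM, with a direct difference of -1.02 ± 0.14 (SE, adjusted p = 0.001). Negr1, an adhesion molecule of neurites, was at 265, 268 and 290.4 CPM against 509, 516 and 433 CPM, with all references between 105 and 155 CPM. Its direct difference was -0.82 ± 0.16 (SE, adjusted p = 0.0067). After reference adjustment the differences were -0.39 (Lmo3), -0.60 (Spock1) and -0.72 (Negr1), with unadjusted p of 0.151, 0.00818 and 0.00587.

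Ncam2, a neural cell adhesion molecule, was the opposite case. It was at 52.8, 61.2 and 87.4 CPM in Hoxa5tdTomato and at 32.3, 44.5 and 27.2 CPM in IRES-GFP, while the references lay between 221 and 323 CPM. Both groups were far below all references, by -1.80 (adjusted p = 0.000951) and -3.13 (adjusted p = 4.33e-06) on the log2 scale. The direct difference of 0.95 ± 0.21 (SE, adjusted p = 0.0126) was lost without Hoxa5tdTomato replicate 3 (adjusted p = 0.0731). Reln, the secreted guidance protein reelin, was higher than the references in both groups, at 721, 773 and 724 CPM in Hoxa5tdTomato and 1016, 952 and 655 CPM in IRES-GFP. Its differences from the references were 1.29 and 1.21 (adjusted p = 0.00246 and 0.00233), and the direct difference of -0.24 ± 0.17 (SE) had an adjusted p of 0.406. St18, a zinc finger transcription factor, was at 213, 319 and 218 CPM against 266, 356 and 270.5 CPM, with overlap between the groups.

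Of 27 tested transcription factors of the rhombic lip and of pontine neurons, 8 were called lower in Hoxa5tdTomato, none higher, and 19 did not pass. For this list and those below, the shares over all tested genes were 5.67% lower and 2.41% higher. Their median log2 difference was -0.51 (-0.22 with scaling by library size), it was -0.41 between the references, and the reference-adjusted median was -0.25. Of the 8 calls, 6 held in each of the 12 fits without 1 library (Nfix, Nhlh1, Nhlh2, Nfia, Nfib and Pax6). Zic4 and Ebf3 were lost in 3 and 2 of them, with the largest adjusted p 0.120 without Hoxa5tdTomato replicate 3 and 0.0854 without replicate 2. Nfix, of the nuclear factor I family of neuronal differentiation, was at 735, 661 and 896 CPM in Hoxa5tdTomato and at 2261, 2212 and 3158 CPM in IRES-GFP. The creErt2 references (1199.7 to 1505 CPM) and the tdT references (1940.4 to 2683 CPM) fell between or with IRES-GFP. The direct difference was -1.74 ± 0.17 (SE, adjusted p = 0.000103), and that between the references was -0.76 (adjusted p = 0.035).

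Its relatives Nfia and Nfib had direct differences of -1.10 ± 0.18 and -0.81 ± 0.14 (SE), with adjusted p of 0.00257 and 0.00391. Nfib was at 2764, 3079.6 and 3440.5 CPM in Hoxa5tdTomato, below all 9 other libraries, which ran from 4205 to 6289 CPM. Nhlh1, a helix-loop-helix factor of young migrating neurons, was at 13.3, 9.22 and 12.4 CPM in Hoxa5tdTomato and at 50.9, 153 and 317 CPM in IRES-GFP. All 9 other libraries lay above Hoxa5tdTomato, with the creErt2 references from 33.4 to 41.6 CPM and the tdT references from 73.5 to 203 CPM. The direct difference was -3.90 ± 0.52 (SE, adjusted p = 0.000875), and that between the references was -1.87 (adjusted p = 0.0708). Nhlh2 behaved alike at 22.4, 32.9 and 28.5 CPM against 55.0, 165 and 210.3 CPM. Pax6, which directs rhombic lip neurons, was at 178, 205 and 161 CPM against 371, 238 and 528 CPM, a difference of -1.06 ± 0.22 (SE, adjusted p = 0.00898).

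Netrin and Slit receptors steer migrating pontine neurons. Of 22 genes of these ligands and receptors, 4 were lower (Robo1, Robo3, Dcc and Srgap3) and none higher, with a median of -0.15, which became 0.13 with scaling by library size and 0.35 after reference adjustment. Robo3, the receptor that permits midline crossing, was at 51.9, 68.7 and 74.3 CPM in Hoxa5tdTomato and at 133, 215 and 619 CPM in IRES-GFP. The references ran from 105 to 556 CPM, so Hoxa5tdTomato was below all 9 other libraries. The difference was -2.31 ± 0.45 (SE, adjusted p = 0.00673). Robo1, a Slit receptor, was at 82.5, 67.9 and 93.9 CPM against 127, 214 and 316 CPM, and the references ran from 31.4 to 40.0 CPM in creErt2 and from 116 to 199 CPM in tdT. Its direct difference was -1.43 ± 0.28 (SE, adjusted p = 0.00714), that between the references was -2.16 (adjusted p = 0.0023), and the reference-adjusted one was 0.73, of the opposite sign. Calls of Robo1 and Robo3 held without any 1 library, while those of Dcc (0.063 without Hoxa5tdTomato replicate 2) and Srgap3 (0.114 without replicate 1) did not.

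Of 30 semaphorins, plexins and neuropilins, 6 were lower and none higher, with a median of -0.19 that became 0.11 under library size scaling. Nrp1 (log2 difference -0.73, adjusted p = 0.00588) was the 1 call of the 6 that held in each fit without 1 library. Of 21 Eph receptors and ephrins 1 was lower and none higher, and of 16 classical cadherins none passed. Over all tested genes 5.67% were lower and 2.41% higher. Of 35 immunoglobulin adhesion molecules, 2 were higher (Ncam2 and Kirrel3) and 4 lower (Ncam1, Chl1, Nfasc and Negr1). The medians of these 3 lists lay between -0.12 and 0.01, and between 0.16 and 0.28 under library size scaling.

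**Figure D4:**
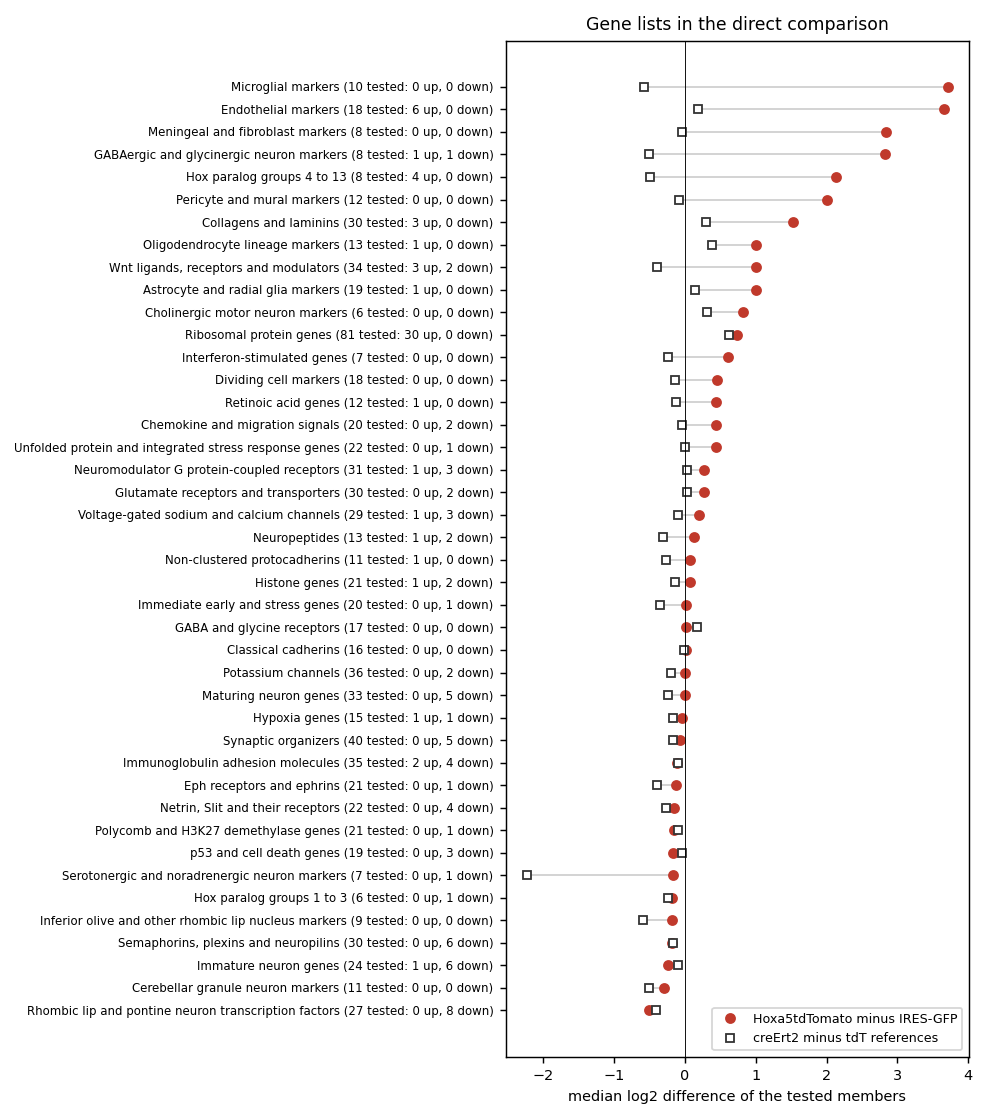
Gene lists by their median log2 difference. For each list with at least 6 tested members, the TALE cofactors left out, a red circle gives the median of Hoxa5tdTomato minus IRES-GFP, an open square the median of creErt2 minus tdT references, and the label the number tested and called. The squares lie near the circles for ribosomal proteins and rhombic lip factors. They lie far from them for several lists, among them Hox groups 4 to 13 and the vascular, meningeal, microglial, and GABAergic and glycinergic markers. Of the tested members, 2 of 8 Hox, 7 of 18 endothelial, 3 of 12 pericyte, 4 of 8 meningeal and 5 of 10 microglial genes passed the count filter only through Hoxa5tdTomato. Such genes could stand out in 1 direction only. Without them the direct medians were 2.13, 3.17, 1.79, 2.14 and 3.49. The GABAergic and glycinergic markers were not checked for this.

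Genes of immature and of maturing neurons were lower where they passed the test, with 1 exception. Lower calls also outnumbered higher ones over all tested genes, at 5.67% against 2.41%. Among 24 immature neuron genes 6 were lower and 1 higher (median -0.24), and among 33 maturing neuron genes 5 were lower and none higher (median -0.01). Library size scaling brought these medians to 0.04 and 0.25. Cd24a, a surface protein of young neurons, had a log2 difference of -1.20 (adjusted p = 0.00176), and Snap25, a protein of synaptic vesicle release, had -0.78 (adjusted p = 0.00352). Both calls held without any 1 library, as did 3 of the 6 immature and 1 of the 5 maturing genes in all. Of 40 synaptic organizers 5 were lower and none higher (median -0.08, or 0.21 under library size scaling), of 30 glutamate receptors and transporters 2 were lower, and of 17 GABA and glycine receptors none passed. Potassium channels gave 2 lower of 36, and sodium and calcium channels 1 higher and 3 lower of 29. The lower calls of potassium channels and of glutamate genes were near the share over all tested genes (5.67%). The higher channel gene, Cacna1c, an L-type calcium channel subunit, had 0.76 (adjusted p = 0.00457) and 0.68 between the references.

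Among 31 neuromodulator receptors, 3 were lower and 1 higher. Adora2a, an adenosine receptor called higher, had at most 2 counts in any library outside Hoxa5tdTomato, so it could be called in 1 direction only. Beside Oprm1, the somatostatin receptor Sstr1 was lower (-1.63, adjusted p = 0.00545) and kept its call without any 1 library. Neuropeptides gave 1 higher and 2 lower of 13. Wnt ligands, receptors and modulators gave 3 higher and 2 lower of 34, of which 1 call, Fzd3 (-0.94, adjusted p = 0.00276), held without any 1 library. Fzd3 is a Wnt receptor of axon growth and neuronal migration. In the list of p53 and cell death genes 3 of 19 were lower (median -0.16, or 0.13 under library size scaling). Hrk, a proapoptotic BH3 protein of neurons, was at 25.9, 30.2 and 32.4 CPM in Hoxa5tdTomato and at 109, 176 and 409.9 CPM in IRES-GFP. All 9 other libraries lay above the Hoxa5tdTomato range, the references from 32.7 to 198 CPM, and the direct difference was -2.97 ± 0.42 (SE, adjusted p = 0.00101). Between the references it was -1.56 (adjusted p = 0.0684).

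Endothelial markers tended to be higher in Hoxa5tdTomato. The 11 that passed the count filter without this group had a median log2 difference of 3.17, against 0.02 over all tested genes. Of the list, Aplnr and Egfl7 were among the 12 widest gaps upward, and both passed the filter only through Hoxa5tdTomato. Of 18 tested endothelial markers 6 were called higher and none lower, and in 15 of the 18 the groups did not overlap, against 14.7% of all genes. Of the 18, 7 would not have passed the count filter on the 9 libraries other than Hoxa5tdTomato, 3 of the 6 calls among them (Tie1, Aplnr and Egfl7), so these could be called in 1 direction only. The other 11 gave 3 calls and 8 without overlap. The summed level of the list was 177 to 339 CPM in Hoxa5tdTomato, 9.87 to 75.0 in IRES-GFP, 12.3 to 52.2 in creErt2 and 4.17 to 38.6 in tdT references. Eng, a TGF-beta coreceptor of endothelium, was at 28.0, 18.8 and 18.8 CPM against 0.0931, 0.989 and 0.602 CPM, with all references between 0.355 and 3.55 CPM. Its log2 difference was 5.26 ± 1.00 (SE, adjusted p = 0.00568). Aplnr, the apelin receptor, was at 7.65, 6.19 and 11.7 CPM in Hoxa5tdTomato and at 0 in all IRES-GFP libraries, at least 175-fold higher. Aplnr and Egfl7 were the 2 of the 18 at 0 in all IRES-GFP libraries. Slc22a8, an organic anion transporter outside the list, was at 16.7, 9.43 and 32 CPM against 0, at least 388-fold higher, and Egfl7, a secreted vessel protein, was at least 143-fold higher. Their adjusted p were 0.00734, 0.00943 and 0.00881, and the calls of Eng, Aplnr, Slc22a8 and Egfl7 held without any 1 library, 3 of the 6 endothelial calls among them. Whether Slc22a8 passed the count filter without Hoxa5tdTomato was not checked.

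Kdr, the VEGF receptor, was at 26.9, 24.1 and 45.2 CPM against 0, 10.7 and 0, which did not pass the test (adjusted p = 0.279). None of the 12 tested pericyte, 8 meningeal and 10 microglial markers passed. Of these, 3 pericyte, 4 meningeal and 5 microglial markers would not have passed the count filter on the libraries other than Hoxa5tdTomato. Pericyte markers summed to 124 to 257 CPM in Hoxa5tdTomato, 6.07 to 67.0 in IRES-GFP, 12.1 to 26.2 in creErt2 and 4.10 to 31.1 in tdT references. Meningeal markers summed to 46.2 to 96.1 CPM against 46.1 at most in IRES-GFP and 21.3 at most in the references. Microglial markers summed to 134 CPM in Hoxa5tdTomato replicate 1 and to 30.1 and 31.3 in replicates 2 and 3, against 23.2 to 24.6 in IRES-GFP, 30.6 to 36.6 in creErt2 and 21.1 to 49 in tdT references, so replicate 1 alone lay above the references. Of 30 collagens and laminins 3 were higher, none of which held without each library in turn. In a sorted bulk sample, more cells of a type and more RNA per cell cannot be told apart, and the part of such cells in the Hox or neuronal differences was not tested. Dividing cell markers (0 of 18) and cerebellar granule neuron markers (0 of 11) gave no call. The remaining lists, of stress, hypoxia, histone, interferon, Polycomb, protocadherin, chemokine, oligodendrocyte and other neuron genes, each had at most 2 calls in a direction.

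Of 8 tested GABAergic and glycinergic markers 1 was higher and 1 lower. Gad1, which makes GABA, was at 3.11, 1.89 and 3.48 CPM in Hoxa5tdTomato and at 0 in IRES-GFP, at least 57.9-fold higher (adjusted p = 0.0221). In the references it ran from 0.0357 to 3.80 CPM, so Hoxa5tdTomato was not above them. The call of Gad1 was lost in 3 fits without 1 library, the largest adjusted p being 0.062 without Hoxa5tdTomato replicate 1. The lower marker was Lhx1, with log2 differences from -3.1 to -1.6 over the 12 fits without 1 library. Its call was lost in 1 of them, without Hoxa5tdTomato replicate 1 (adjusted p = 0.0602). Astrocyte markers gave 1 higher of 19, Fabp7 of radial glia (log2 difference 1.02), with a like difference of 1.03 between the references.

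Of the 12 widest gaps upward among called genes with a mean of at least 5 CPM in 1 of the groups, Slc22a8, Aplnr, Egfl7, Slc38a5, Cmklr1 and Slfn5 had no count in any IRES-GFP library, and Fzd6, Abhd3, Arap3, Anxa2, Gm5136 and Nxpe2 followed. Of these, Aplnr and Egfl7 passed the count filter only through Hoxa5tdTomato, as given above. Cmklr1, with at most 3 counts in any library outside that group, did so too. These could be called in 1 direction only, and the rest of the 12 were not checked for this. Gm5136, a predicted gene, was at 12.1, 8.48 and 6.13 CPM in Hoxa5tdTomato and at 0, 0.045 and 0.100 CPM in IRES-GFP, but the creErt2 references (8.88 to 11.0 CPM) lay with the former and the tdT references (0.285 to 2.91 CPM) below. Its direct log2 difference was 7.34 and that between the references was 2.93. At the other end, genes with the widest gap downward included Nhlh1, Hrk and Esr1. Esr1, the estrogen receptor, was at 0.178, 0.404 and 0 CPM in Hoxa5tdTomato and at 6.43, 2.43 and 7.77 CPM in IRES-GFP, with all 6 references between 3.31 and 6.57 CPM. Only Hoxa5tdTomato was low. The log2 difference of -4.73 ± 0.99 (SE, adjusted p = 0.00964) was lost without Hoxa5tdTomato replicate 1 (adjusted p = 0.0568).

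Short genes ran the other way from long ones, in the groups and in the references alike. Of 81 tested ribosomal protein genes 30 were higher in Hoxa5tdTomato and none lower, with a median of 0.73, and 20 were also called between the references, with a median of 0.62. After reference adjustment the median was 0.05. Of the 30 calls, 12 held in each fit without 1 library. Rplp1, of the ribosomal stalk, was at 247, 251 and 205 CPM in Hoxa5tdTomato and at 34.4, 33.8 and 60.7 CPM in IRES-GFP, and at 141 to 158 CPM in creErt2 and 24.8 to 28.2 CPM in tdT references. The direct difference was 2.45 ± 0.22 (SE, adjusted p = 0.000103), that between the references was 2.49 (adjusted p = 0.000128), and the adjusted one was -0.04. Atp5e and Cox6a1, short subunits of mitochondrial respiration singled out after their values were seen, had direct differences of 1.76 and 1.20 and reference differences of 1.61 and 1.05.

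Over 10 bins of gene length as deposited, the median direct difference was 0.59 for the shortest genes (44 to 1207 bases) and -0.20 for the longest (7481 to 107966 bases). The medians between the references were 0.50 and -0.05 in the same bins, and the reference-adjusted ones were 0.09 and -0.13. Calls followed: 131 higher and 5 lower among the shortest, 24 higher and 227 lower among the longest. Centring each library within bins of gene length, an alternative chosen after seeing the data, gave 194 higher and 683 lower genes and a ribosomal median of 0.08. The median of the 8 Hox genes of groups 4 to 13 was then 1.77, and that of endothelial markers 3.67. Both medians include members that passed the count filter only through Hoxa5tdTomato, 2 of the 8 Hox genes and 7 of the 18 endothelial markers.

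**Figure D5:**
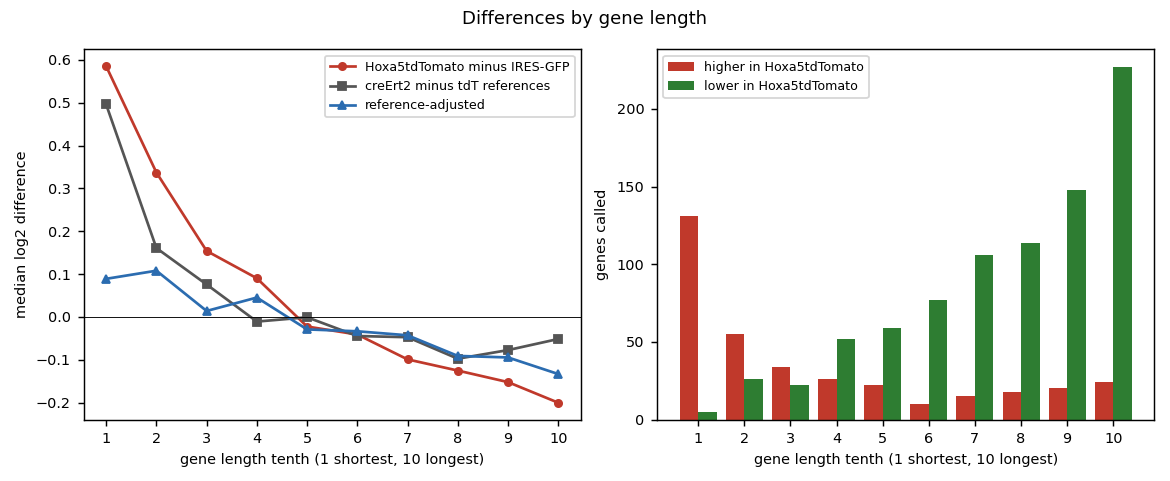
Differences by gene length. The left panel plots the median log2 difference in each of 10 bins of gene length for the direct, reference and reference-adjusted differences, and the right panel plots the number of genes called higher and lower directly (bars from 0). The direct and reference medians fall together from 0.59 and 0.50 in the shortest bin, the adjusted one stays between -0.13 and 0.11, and calls turn from 131 higher in the shortest to 227 lower in the longest.

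Levels close between the groups were described by the interval of the difference, since a missed threshold does not show equality. For 3988 of 14732 genes (27.1%) the 95% interval of the direct difference lay within 1 log2 unit of 0. Reln, with an interval from -0.60 to 0.11, was among them, and Hoxb4, from -0.56 to 1.20, was not.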

How the data were processed

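Pontine nucleus neurons were sequenced as bulk RNA. Per the labels, each replicate held 2000 sorted cells, cDNA was amplified by SPIA (Ovation system) from 1000 cell equivalents, and 1 ng of it went into TruSeq Nano libraries. Reads amplified in this way cannot be traced to single molecules, so the floors cover counting error only. The authors deposited raw read counts for 23079 Entrez identifiers in 12 libraries, with no normalization, and the length of each gene in bases as another column, per the file headers. The submitters' processing notes name mm10 and bcl2fastq 1.8.4. Aligner, counter, annotation and strandedness: not given in the sources used here. Symbols and positions were matched by identifier to GRCm38.p6 for 23008 genes.

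Genes were kept with filterByExpr at a minimum count of 10 and scaled by TMM. One fit of 4 groups used quasi-likelihood in edgeR 4.0.16 (R 4.3.3), with Benjamini-Hochberg adjustment over 14732 genes at 0.05. The common dispersion was 0.295. Values are CPM scaled by TMM. DESeq2 1.42.0 and limma 3.58.1 (voom) were alternatives, beside other scalings, filters, groupings, a replicate block, thinned counts, crossed references and fits without 1 library. Depth ran from 9973484 to 29820776 counts. Folds against a group at 0 use a floor of 3 counts over the group.

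The members, the gene lists and the tests were chosen with earlier results of these data known. Named were Hoxa5, Atoh1, all Hox genes of groups 4 to 13 with a count, and, per list, up to 4 genes by adjusted p, or 2 where none passed. The rule also took the 12 largest non-overlapping differences in each direction at 5 CPM or more among genes called in both the direct and the reference-adjusted difference. Since edgeR called 0 there, direct calls took their place, chosen after values were seen. Genes called in both comparisons with the references were also named after values were seen. One gene that the rule names is not reported here.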

Additional observations from a re-analysis of the deposited data

Results flagged for a closer look

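Of 176 named genes, 15 had 1 library far from the other 5 among the Math1tdTomato references by Dixon's test. Chance gives about 1 in 20 for values of 1 normal population. The references are 2 sets that differ in depth, and some values rest on few counts. The 15 therefore cannot be held against that rate. The outlying values in CPM were 47.0 for Cdh4, 0.129 for Cmklr1, 6.70 for Eya2, 1.71 for Foxd1 and 3.80 for Fzd6. They were 0.785 for Hoxd4, 4.44 for Ndufa4l2, 108 for Nrp2, 0.362 for Pcdh12 and 1.99 for Slc38a5. They were 0.799 for Slfn5, 829 for Snap25, 852 for Srgap3, 0.815 for Tbx3 and 221 for Vldlr. The groups of 3 libraries were too small for this test.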

How the results depend on the processing

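Direct calls were 355 higher and 836 lower. Library size scaling gave 194 lower, DESeq2 gave 827 higher, voom 531 lower, 3 label groups 135 higher and 358 lower, the 6 libraries compared alone 59 and 83, and centring within gene length bins 194 higher. The cause was not tested, except that the last fits use fewer samples or remove length. Reference-adjusted calls went from 0 to 54 with DESeq2 (49 called in both differences) and to 1722 with crossed references. Reference calls went from 197 to 589 with DESeq2 and 48 with length centring. Leaving out 1 library gave 109 to 636 higher, 238 to 1240 lower, 0 to 3 reference-adjusted calls, 0 to 3 called in both, and 38 to 784 between the references.

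Genes that turned sign, none of them called directly, were Cadm2 (0.15), Hoxa3 (0.23), Hoxd3 (0.030), Plcb1 (0.0077), Reln (0.031) and St18 (0.033) under library size scaling. Others were Hoxa3 (0.0036) and Hoxd4 (0.94) in voom, and Cadm2 (0.051) and Tmem178 (-0.024) with length centring. Without 1 library the ranges that crossed 0 were -0.069 to 0.39 (AI593442), -0.11 to 0.43 (Gabrb2), -0.34 to 0.14 (Hoxa3), -0.53 to 0.21 (Hoxd3), -1.19 to 0.10 (Hoxd4) and -0.063 to 0.47 (Klhl13).

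Same-numbered libraries of the 2 groups had correlations of their deviations between -0.029 and 0.0091, which show no pairing by number. With 3 libraries in each group they cannot exclude a shared litter or batch, which the labels do not give. With the replicate block 291 genes were higher and 676 lower. Hoxa5 (2.86, adjusted p = 0.0110) was then called, Hoxa7 (adjusted p = 0.0618) was not, and the log2 difference of Hoxd4 was 0.025. Depth limits genes at 0: 3 counts over a group are 0.0471 CPM in IRES-GFP and 0.081 CPM in Hoxa5tdTomato.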
